A study of Mus musculus with 24 samples.

Results

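The mRNAs that encode the proteins of the cytosolic ribosome were followed through a pulldown with a miR-29b mimic in mouse fibroblasts. A gene was taken when its biotype in the whole-cell table was protein coding and its symbol began with Rpl or Rps and a digit, or was Rplp0, Rplp1, Rplp2 or Rpsa. The S6 kinase genes (Rps6k symbols) were left out. This gave 99 of 13534 genes, of which 43 encode proteins of the large subunit, 31 encode proteins of the small subunit and 3 encode the proteins of the stalk. These 77 are called the subunit genes here. The other members are 5 paralogues of subunit genes (Rpl22l1, Rpl36al, Rpl39l, Rpl7l1 and Rps27l), 16 genes with retrocopy symbols, and Rps19bp1. The last encodes a protein that binds Rps19 and is not itself part of the ribosome. Retrocopy symbols are here those of the form of Rpl23a-ps3, with Rps3a2 and Rps3a3 added by hand. After the filter on low counts 98 members were tested, with Rpl27-ps3 left out, and 93 are listed in the table of cell fractions.

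NIH3T3, a line of mouse embryonic fibroblasts, was transfected with a miR-29b mimic or with a scrambled mimic, both carrying the nucleoside 3-cyanovinylcarbazole, which forms crosslinks under light, at 10 nM. The cells received medium at 24 h and were collected 8 h after that. RNA pulled down with a mimic was sequenced beside the input RNA of the same treatment. Whole cells gave 4 groups with 4 replicates each: miR-29b pulldown, scrambled pulldown, miR-29b input and scrambled input. The file headers mark replicates 1 to 3 as lysed and replicate 4 as intact, so the replicates are not all of 1 kind. The same 4 kinds of sample were sequenced from nuclei and from cytoplasm with 1 library each. All cells came from this line, all received a crosslinkable mimic, and no untransfected group was used here.

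A ribosome carries a copy of most of these proteins, and their mRNAs are among the most abundant of a growing cell. Most of them belong to the TOP mRNAs, whose first transcribed base is a C followed by an uninterrupted run of C and T bases. The protein Larp1 and the kinase mTOR act through this run, so that translation of the whole class follows nutrients and growth factors. A microRNA finds its targets mostly through its seed, and miR-29 is best known for repressing collagens and other matrix genes of fibroblasts.

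The sequences below are the mature microRNA that the mimic is named for and the start regions of 8 members named in the results. The mature sequence is that of RefSeq on GRCm38.p6, where it is encoded at chr1:195037091-195037113 on the plus strand and at chr6:31063025-31063047 on the minus strand. The capitals mark the seed, bases 2 to 8. The sequence synthesised for the mimic, with its modified base, was not used here.
mmu-miR-29b-3p: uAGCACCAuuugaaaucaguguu

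Each start region has 30 bases read 5′ to 3′, with 10 bases before the start in RefSeq's promoter table. For Rpl18 that start lies inside the annotated span of the gene, which begins at 45715467, and for the other 7 genes it is the 5′ end of the span. The capitals mark a C followed by C or T bases only, over at least 5 bases, that begins within 5 bases of the start. The first 5 genes hold such a run and the last 3 do not. They lie at chr4:86857348-86857377 (minus strand, Rps6), chr7:45718061-45718090 (plus, Rpl18), chr7:45128726-45128755 (minus, Rpl13a), chr14:18270967-18270996 (minus, Rpl15), chr3:28805498-28805527 (plus, Rpl22l1), chr7:24884582-24884611 (plus, Rps19), chr16:55966265-55966294 (plus, Rpl24) and chr5:115559457-115559486 (plus, Rplp0).
Rps6: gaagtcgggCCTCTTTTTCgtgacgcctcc
Rpl18: ctcgcaggccgCTCTTTCCCCgcccactcc
Rpl13a: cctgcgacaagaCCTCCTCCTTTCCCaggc
Rpl15: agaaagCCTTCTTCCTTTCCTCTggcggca
Rpl22l1: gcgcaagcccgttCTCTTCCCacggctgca
Rps19: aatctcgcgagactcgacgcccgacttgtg
Rpl24: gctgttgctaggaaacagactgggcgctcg
Rplp0: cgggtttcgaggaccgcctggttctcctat

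A promoter entry was found for 57 of the 77 subunit genes. Such a run began exactly at the annotated start in 12 of the 57 (21.1%), against 673 of 27025 genes with an entry (2.49%). It began within 5 bases of the start in 26 of the 57 (45.6%), against 4989 of 27025 (18.5%). The start regions of Rpl10, Rpl4 and Rpl41, also named in the results, were read too, hold no such run and are not printed. The annotated start is 1 base per gene, and a gene without the run in this window may start elsewhere in these cells.

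The whole-cell libraries held between 7409157 and 55153996 counts over the listed genes, and the fraction libraries between 5320421 and 20142591. Of 12 fibroblast marker genes 11 were in the table, with summed levels of 4960 to 8120 CPM (counts scaled to library size) in the inputs and Lum not listed. Epithelial, leukocyte and endothelial markers had 1 listed gene each and never exceeded 3.92 CPM in the inputs. Replicate 4 stood apart. On a principal component that held 17.8% of the variance, it lay at 65 in the miR-29b pulldown, 76.2 in the miR-29b input and 72.9 in the scrambled input, but at -14.8 in the scrambled pulldown, beside -15.4 and -18.5. Replicate 4 is the one that the file headers name intact. Means, SDs and tests over all 4 replicates therefore pool lysed and intact libraries. Replicate 3 lay between replicates 1 and 2 of its own group for 86 of the 98 members in the miR-29b pulldown (71.5% of all genes), 81 in the scrambled pulldown (61.9%), 75 in the miR-29b input (46.9%) and 77 in the scrambled input (46.8%). The counts below are therefore also given for replicates 1, 2 and 4 and for replicates 1 to 3. They are given too for 10 libraries that leave out every replicate 3 and replicate 4 of both the miR-29b input and the scrambled pulldown. These 10 libraries keep replicate 4 of the miR-29b pulldown and of the scrambled input. Each pulldown over input then sets a group with an intact library against a group without one. In that set this imbalance cannot be told apart from the pulldown.

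The 99 genes held a smaller share of the counts in most pulldown libraries than in the inputs. They made up 4.16%, 3.43%, 3.8% and 8.29% of the listed counts in the miR-29b pulldown (replicates 1 to 4), and 7.28%, 4.74%, 5.31% and 5.63% in the scrambled pulldown. The inputs held 6.79%, 5.87%, 6.44% and 11.03% with miR-29b and 6.6%, 5.73%, 6.14% and 9.27% with the scrambled mimic. Replicate 4 held the highest share in the miR-29b pulldown and in both inputs, and the pulldown and input groups overlapped. The means were 4.92% ± 2.27 in the miR-29b pulldown and 5.74% ± 1.09 in the scrambled pulldown, against 7.53% ± 2.36 in the miR-29b input and 6.94% ± 1.6 in the scrambled input (SD, n = 4 each). In both replicate 4 inputs at once, 85 of 98 members were above the other 6 inputs, as were 25.0% of all genes tested, and 1 member was below them (28.9% of all genes). In bulk RNA, fewer cells with a transcript and less of it per cell cannot be told apart.

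**Figure D1:**
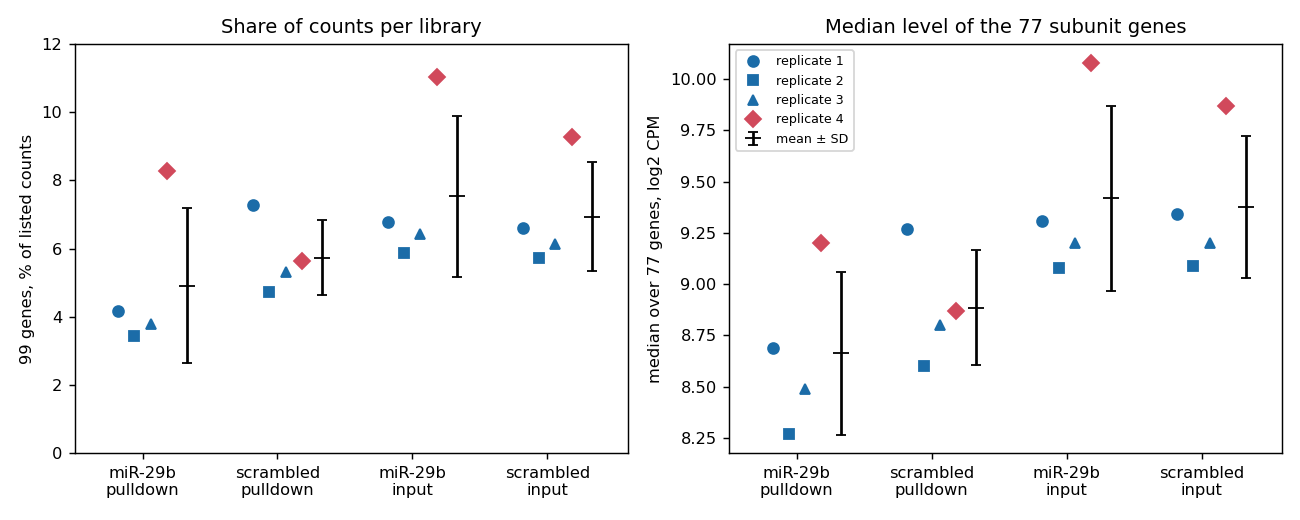
Share of the listed counts held by the 99 genes (left, %) and median level of the 77 subunit genes (right, log2 CPM) in each of the 16 whole-cell libraries, by group, with replicate 4 in red and the mean ± SD in black. Replicate 4 is the highest library of both input groups and of the miR-29b pulldown, at 11.03%, 9.27% and 8.29% of counts.

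Ribosomal protein mRNAs were lower in the miR-29b pulldown than in its input. Of 98 members, 55 fell and 1 rose by edgeR's quasi-likelihood test (adjusted p under 0.05), where 23.2% of all genes fell and 28.4% rose. The median log2 change was -0.84, against -0.03 over all genes, and 91 of 98 members lay below 0. Of the members, 48 had every pulldown library below every input library, as had 18.0% of all genes. The large subunit had 26 of 43 genes lower (median log2 change -0.86), and the small subunit had 18 of 31 (median -0.84). With replicates 1, 2 and 4 alone 37 of 98 members fell (14% of all genes), with replicates 1 to 3 69 of 97 fell (31.0%), and with the 10 libraries 18 of 97 fell (14.4%). With the replicate number as a block 78 members fell (28.3% of all genes) and 2 rose (31.1%).

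Among the large subunit genes the lowest was Rpl8, whose protein lies at the peptidyl transferase centre. It had 458, 282, 365 and 246 CPM in miR-29b pulldowns, against 983, 863, 945 and 1260 CPM in the input. All 4 pulldown libraries lay below all 4 inputs, and the log2 change was -1.59 ± 0.25 (SE, edgeR adjusted p = 8.92e-05). Rpl4, which lines the exit tunnel of the ribosome, had 514, 370, 438 and 229 CPM in the pulldown, against 1170, 1150, 1130 and 958 CPM in the input. These groups did not overlap either, and Rpl4 fell by 1.51 on the log2 scale (SE 0.20, edgeR adjusted p = 2.13e-05). Rpl13a, known outside the ribosome for silencing inflammatory mRNAs, had 465, 330, 398 and 409 CPM in the pulldown, against 1040, 932, 997 and 1200 CPM in the input, a log2 change of -1.38 ± 0.27 (edgeR adjusted p = 0.00055).

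Of the small subunit, Rps6, the substrate of the S6 kinases, had 225, 158, 189 and 208 CPM in miR-29b pulldowns and 480, 389, 446 and 662 CPM in the input. Every pulldown library was lower than every input, and the log2 change was -1.34 ± 0.20 (edgeR adjusted p = 5.06e-05). Rpsa, which is also known as a laminin receptor, had 1230, 973, 1090 and 2110 CPM in the pulldown, against 2430, 2270, 2380 and 8380 CPM in the input. Replicate 4 of the input was more than 3 times any other library of its group. Rpsa fell by 1.51 on the log2 scale (SE 0.46, edgeR adjusted p = 0.0119), but by 0.76 without that library (adjusted p = 0.0958).

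With the scrambled mimic, members were also lower in the pulldown than in the input. Here 33 fell and 1 rose of 98, where 17.4% of all genes fell and 18.5% rose (edgeR adjusted p under 0.05). The median log2 change was -0.54, against 0.03 over all genes, and 85 members lay below 0. In 34 members every pulldown library was below every input library, as in 19.6% of all genes. The large subunit had 17 of 43 genes lower and the small subunit 8 of 31. With replicates 1, 2 and 4 alone 10 of 98 members fell (7.7% of all genes), with replicates 1 to 3 36 of 97 fell (26.4%), and with the 10 libraries 3 of 97 fell (3.39%). The shares in the first and last of these sets are near those of all genes.

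The gene that fell furthest was Rpl10, which joins the large subunit late in its assembly. It had 621, 490, 533 and 502 CPM in scrambled pulldowns, against 1310, 1240, 1320 and 1790 CPM in scrambled inputs. The groups did not overlap, and the log2 change was -1.40 ± 0.21 (edgeR adjusted p = 0.000114). In the miR-29b pulldown Rpl10 had 917, 556, 725 and 958 CPM, against 1450, 1290, 1390 and 1890 CPM in its input (-0.93 ± 0.20, edgeR adjusted p = 0.00125). Rpl15, another large subunit gene, had 190, 269, 244 and 240 CPM in scrambled pulldowns and 452, 502, 475 and 733 CPM in scrambled inputs. It fell by 1.2 on the log2 scale without overlap (SE 0.19, edgeR adjusted p = 0.0002). Rpl5 and Rpl11 form with 5S rRNA the particle that binds Mdm2 when ribosome assembly is disturbed. Rpl5 changed by -0.50 ± 0.14 in the scrambled pulldown (edgeR adjusted p = 0.0138) and by -0.26 ± 0.14 in the miR-29b pulldown (adjusted p = 0.148). Rpl11 changed by -0.30 ± 0.19 with the scrambled mimic (edgeR adjusted p = 0.225) and by -0.63 ± 0.19 with miR-29b (adjusted p = 0.0105).

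The lower calls of the 2 pulldowns overlapped in 28 members, 50.9% of the 55 lower with miR-29b and 84.8% of the 33 lower with the scrambled mimic. Over all genes the overlap was 44.0% of those lower with miR-29b and 58.6% of those lower with the scrambled mimic. Members lower in both were 28.6% of those tested, against 10.2% of all genes. Across the 98 members, the log2 changes of the 2 mimics correlated with a Pearson r of 0.18, against 0.43 across all genes. These are descriptions over genes measured in the same libraries.

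**Figure D2:**
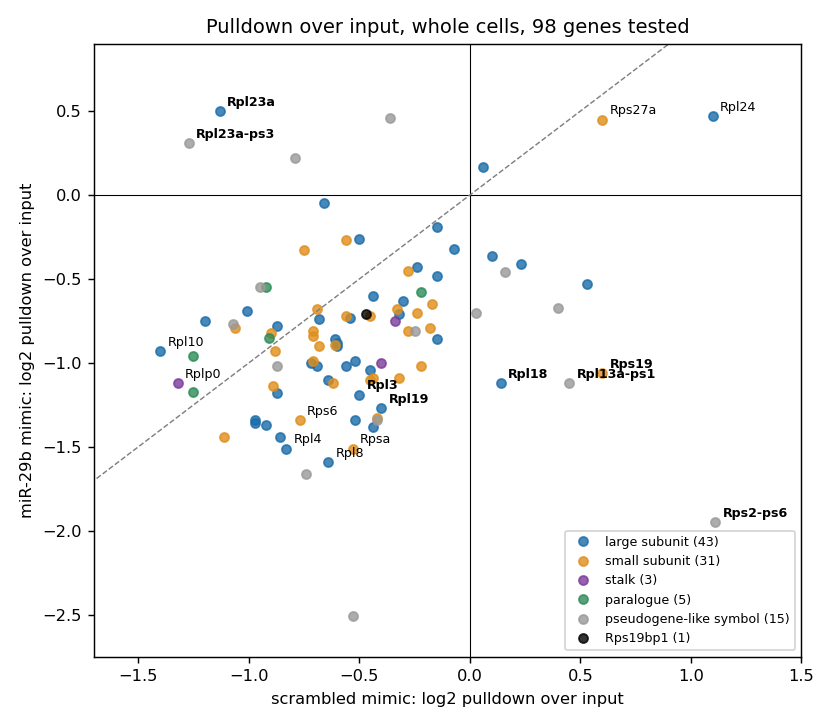
Log2 pulldown over input in whole cells for the 98 members tested, with the miR-29b mimic on the vertical axis, the scrambled mimic on the horizontal axis and colours for the gene classes. Most points lie below 0 on both axes (medians -0.84 and -0.54), Rpl24 is the gene called higher with both mimics, and bold names mark 8 of the 9 members whose changes differed between the mimics.

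The comparison that asks what the miR-29b sequence adds is the difference between the 2 pulldown over input changes. In it 7 of 98 members were lower with miR-29b and 2 were higher (edgeR adjusted p under 0.05), where 9.21% of all genes were lower and 17.0% were higher. The share of members lower is close to that of all genes. The median difference was -0.33 on the log2 scale, against -0.10 over all genes, and 75 of 98 members were below 0. The count is sensitive to which libraries enter: it was 27 lower and 3 higher with replicates 1 to 3 (19.1% and 24.4% of all genes), 2 lower and 0 higher with replicates 1, 2 and 4 (1.81% and 7.78%), and 0 lower and 1 higher with the 10 libraries (1.38% and 9.76%). At an unadjusted p under 0.05 the last 2 sets had 8 and 6 members in either direction. The median depended on single libraries too, at 0.02 when miR-29b input 4 was left out, -0.12 when scrambled pulldown 1 was, -0.51 when scrambled input 4 was and -0.61 when miR-29b pulldown 4 was. It was -0.02 with the 10 libraries, which hold replicate 4 in only some groups. With the scale set by the authors' library totals it was 0.05, against 0.21 over all genes.

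Rps19, a small subunit protein whose human gene is mutated in Diamond-Blackfan anaemia, differed most among the subunit genes. It had 430, 367, 391 and 535 CPM in miR-29b pulldowns, against 1520, 1120, 1150 and 1120 CPM in scrambled pulldowns. The inputs had 784, 702, 729 and 1380 CPM with miR-29b and 740, 681, 702 and 1110 CPM with the scrambled mimic. Rps19 was thus below its input in the miR-29b pulldown and above its input in the scrambled pulldown, without overlap in either case. The log2 changes were -1.06 ± 0.24 with miR-29b (edgeR adjusted p = 0.00174) and 0.60 ± 0.24 with the scrambled mimic (adjusted p = 0.0616). Their difference was -1.67 ± 0.34 (edgeR adjusted p = 0.00197; 0.078 with the 10 libraries).

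Rpl18, a large subunit gene on chromosome 7, had 245, 189, 210 and 227 CPM in miR-29b pulldowns and 564, 480, 482 and 466 CPM in scrambled pulldowns. Its inputs had 412, 405, 425 and 652 CPM with miR-29b and 392, 390, 390 and 635 CPM with the scrambled mimic. The miR-29b pulldown was below all other libraries, while the scrambled pulldown overlapped its input. The difference of the changes was -1.26 ± 0.29 (edgeR adjusted p = 0.00405; 0.075 with replicates 1, 2 and 4, and 0.16 with the 10 libraries). In RefSeq's annotation of GRCm38.p6, the span of Rpl18 (chr7:45715467-45720835) overlaps that of Sphk2 (chr7:45709463-45718002), and the strand setting of the counting is not given in the sources used here.

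Rpl19, of the large subunit, had 248, 170, 205 and 213 CPM in miR-29b pulldowns and 466, 315, 337 and 342 CPM in scrambled pulldowns. Its inputs had 542, 449, 484 and 533 CPM with miR-29b and 530, 443, 469 and 489 CPM with the scrambled mimic. The 4 miR-29b pulldown libraries were the lowest, and the difference was -0.86 ± 0.23 (edgeR adjusted p = 0.0117; 0.121 with replicates 1, 2 and 4). Rpl3, which lies close to the peptidyl transferase centre, had 401, 309, 353 and 281 CPM in miR-29b pulldowns, 604, 429, 469 and 501 CPM in scrambled pulldowns, 801, 683, 751 and 829 CPM in miR-29b inputs and 723, 620, 675 and 816 CPM in scrambled inputs. It fell in both pulldowns, by 1.19 with miR-29b (SE 0.17, edgeR adjusted p = 2.7e-05) and by 0.50 with the scrambled mimic (SE 0.16, adjusted p = 0.0261). The difference of -0.69 ± 0.23 was called over all libraries (edgeR adjusted p = 0.0386), but lost its call in 13 of 16 fits that left out 1 library.

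Among the members lower in this comparison were also 2 with retrocopy symbols and low counts. Rpl13a-ps1 averaged 1.25 ± 0.235 CPM in miR-29b pulldowns, 3.9 ± 0.32 in the scrambled pulldown, 2.72 ± 0.589 in the miR-29b input and 2.84 ± 0.761 in the scrambled input (SD, n = 4 each). Its difference was -1.57 ± 0.33 (edgeR adjusted p = 0.00254). Rps2-ps6 averaged 0.0723 CPM in miR-29b pulldowns, 0.623 CPM in scrambled pulldowns, 0.276 CPM in miR-29b inputs and 0.309 CPM in scrambled inputs (difference -3.05 ± 0.88, edgeR adjusted p = 0.0177; 0.0696 without replicate 4 of the miR-29b input). Reads of such near-identical copies may be split between them and their parent genes, so these 2 values are uncertain.

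Rpl23a and Rpl23a-ps3, 1 of its retrocopies, moved the other way. Rpl23a, the large subunit protein at the exit of the tunnel, had 797, 1270, 1040 and 1140 CPM in miR-29b pulldowns, against 295, 286, 307 and 339 CPM in scrambled pulldowns. The inputs had 607, 507, 557 and 1330 CPM with miR-29b and 606, 494, 536 and 1050 CPM with the scrambled mimic. All miR-29b pulldown libraries were above all scrambled ones, and the miR-29b pulldown overlapped its input in replicate 4 of that input alone. Over input, Rpl23a changed by 0.50 ± 0.30 with miR-29b (edgeR adjusted p = 0.182) and by -1.13 ± 0.31 with the scrambled mimic (adjusted p = 0.0094). The difference was 1.63 ± 0.43 (edgeR adjusted p = 0.0107; 0.1 with replicates 1, 2 and 4). Rpl23a-ps3 averaged 7.34 ± 1.05 CPM in miR-29b pulldowns and 1.96 ± 0.327 CPM in scrambled pulldowns, with a difference of 1.58 ± 0.51 (edgeR adjusted p = 0.0304) that was lost in 8 of 16 fits without 1 library. The 2 genes may share reads, so they are not separate observations. The span of Rpl23a (chr11:78180935-78183584) also holds 3 snoRNA genes and overlaps the end of Tlcd1 (chr11:78176716-78181019).

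**Figure D3:**
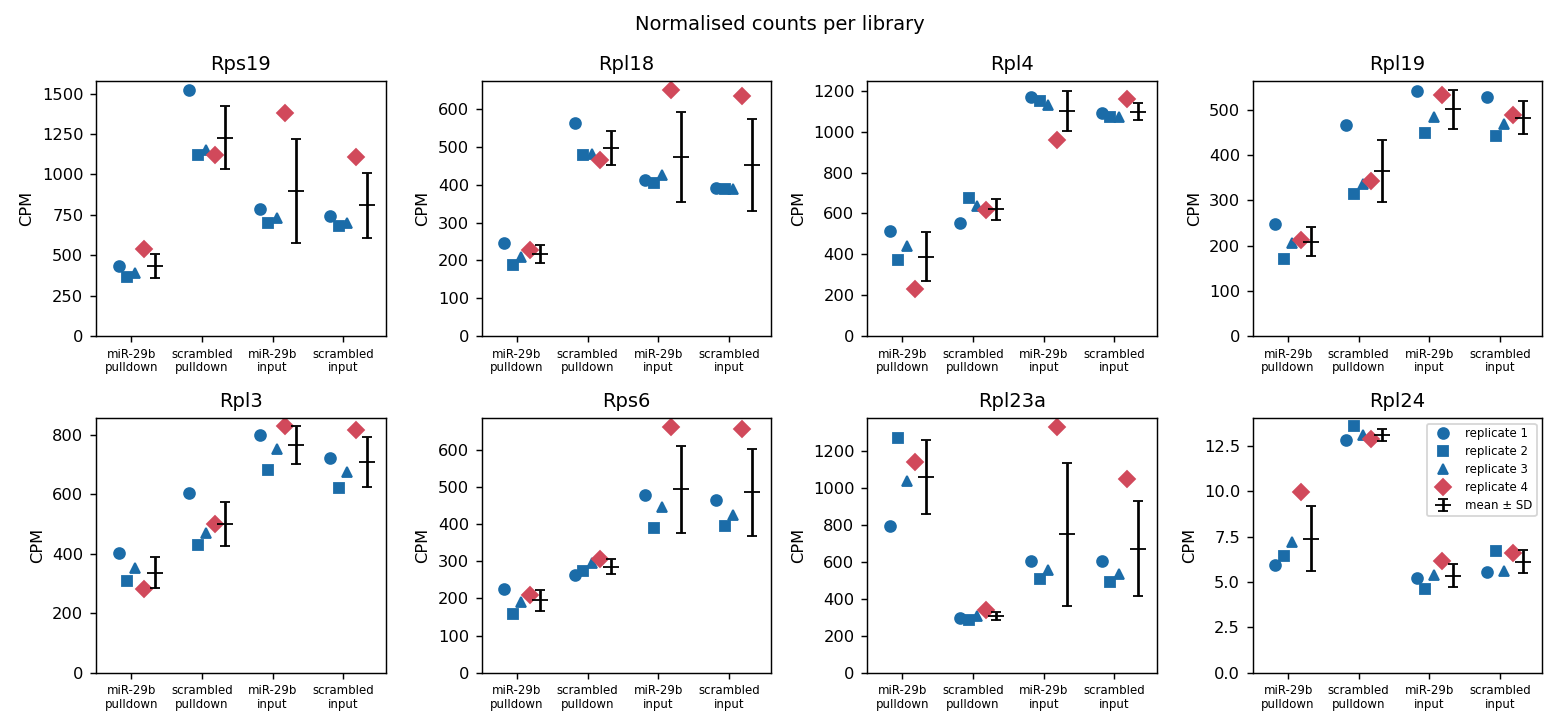
CPM per library of 8 members in the miR-29b pulldown, scrambled pulldown, miR-29b input and scrambled input, with replicate 4 in red and the mean ± SD in black; each vertical axis starts at 0. For Rps19, Rpl18, Rpl4, Rpl19, Rpl3 and Rps6 the 4 miR-29b pulldown libraries lie below the scrambled pulldown and both inputs, Rpl23a is higher in the miR-29b pulldown than in the scrambled one, and Rpl24 is highest in the scrambled pulldown.

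Rpl24 was the member higher in both pulldowns. It had 5.94, 6.4, 7.21 and 9.98 CPM in miR-29b pulldowns and 12.8, 13.6, 13.1 and 12.9 CPM in scrambled pulldowns. The inputs had 5.21, 4.61, 5.38 and 6.17 CPM with miR-29b and 5.54, 6.71, 5.6 and 6.6 CPM with the scrambled mimic. The scrambled pulldown stood above every other library, whereas 1 library of the miR-29b pulldown overlapped its input. The log2 changes were 0.47 ± 0.17 with miR-29b (edgeR adjusted p = 0.0283; 0.142 with replicates 1, 2 and 4) and 1.10 ± 0.17 with the scrambled mimic (adjusted p = 0.000143). The annotated end of Rpl24 (chr16:55966275-55971437) is the annotated start of Zbtb11, at 55971437. Rpl24 was counted far below its class, since the subunit genes had mean medians of 9.42 and 9.38 log2 CPM in the miR-29b and scrambled inputs. Whether reads of its mRNA were counted elsewhere was not tested, so these changes may not describe all of its mRNA.

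The stalk, formed by Rplp0 with Rplp1 and Rplp2, recruits the elongation factors. Rplp0 had 946, 942, 974 and 1200 CPM in miR-29b pulldowns, against 1610, 1470, 1640 and 4120 CPM in miR-29b inputs. It had 755, 389, 446 and 468 CPM in scrambled pulldowns, against 1050, 958, 1040 and 2080 CPM in scrambled inputs. Neither pulldown overlapped its input, and Rplp0 fell by 1.12 with miR-29b (SE 0.35, edgeR adjusted p = 0.0132) and by 1.32 with the scrambled mimic (SE 0.35, adjusted p = 0.0082). With replicate 4 of its input left out, the change with miR-29b was -0.59 (adjusted p = 0.0943). Rplp1 and Rplp2 were called in neither pulldown. In the miR-29b pulldown Rplp1 changed by -0.75 ± 0.56 (edgeR adjusted p = 0.274; 0.0499 with the replicate number as a block) and Rplp2 by -1.0 ± 0.41 (adjusted p = 0.0508; 0.00377 with the block). Rplp1 spread widely, with 1460, 1240, 1530 and 5390 CPM in miR-29b pulldowns.

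The paralogues are expressed beside their parent genes and can take their place in the ribosome or act outside it. Rpl22l1 had 110, 68.7, 86.9 and 182 CPM in miR-29b pulldowns, against 213, 207, 200 and 249 CPM in its input, and 133, 72.3, 75.6 and 61.4 CPM in scrambled pulldowns, against 210, 191, 205 and 206 CPM in its input. It was below its input in all libraries of both pulldowns, by 0.96 (SE 0.27, edgeR adjusted p = 0.00829) with miR-29b and by 1.25 (SE 0.28, adjusted p = 0.00251) with the scrambled mimic. Its parent gene Rpl22 was called in neither (log2 change -0.41 ± 0.24 with miR-29b and 0.23 ± 0.24 with the scrambled mimic), and the paralogue was not tested against the parent. Rps27l, a target gene of p53, changed by -1.17 ± 0.35 with miR-29b (edgeR adjusted p = 0.011) and by -1.25 ± 0.35 with the scrambled mimic (adjusted p = 0.0117), and its parent Rps27 by -0.27 ± 0.43 and -0.56 ± 0.43 (adjusted p = 0.628 and 0.334). Rpl7l1 also fell in both, by 0.85 and 0.91 on the log2 scale (edgeR adjusted p = 0.0164 with miR-29b and 0.0165 with the scrambled mimic). Rpl39l fell with the scrambled mimic (-0.92 ± 0.31, edgeR adjusted p = 0.0272) and changed by -0.55 ± 0.30 with miR-29b (adjusted p = 0.145).

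Rpl36a and its paralogue Rpl36al were not called in whole cells. In the miR-29b pulldown they changed by -0.53 ± 0.38 and -0.58 ± 0.28 (edgeR adjusted p = 0.259 and 0.0985; 0.0317 and 0.00588 with the replicate number as a block). Rps27a, which is made as a fusion with ubiquitin, had point estimates above 0 in both pulldowns, at 0.45 ± 0.27 with miR-29b and 0.60 ± 0.27 with the scrambled mimic (edgeR adjusted p = 0.174 and 0.0911). Rps19bp1 fell with miR-29b (-0.71 ± 0.21, edgeR adjusted p = 0.00897) and changed by -0.47 ± 0.21 with the scrambled mimic (adjusted p = 0.0911). Of the 15 retrocopy symbols tested, 6 were lower with miR-29b (23.2% of all genes) and 3 with the scrambled mimic, a share near the 17.4% of all genes. The lowest with miR-29b were Rpl13-ps3 (-2.51 ± 0.68, edgeR adjusted p = 0.00567) and Rps2-ps6 (-1.95 ± 0.67, adjusted p = 0.024; -0.96 and 0.231 when miR-29b input 4 was left out), both below 1 CPM on average in every group, and Rps2-ps10 (-1.66 ± 0.31, adjusted p = 0.000372).

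Set directly against each other, and so sharing these libraries with the comparisons above, the miR-29b pulldown had 18 of 98 members lower and 5 higher than the scrambled pulldown (edgeR adjusted p under 0.05), where 20.9% of all genes were lower and 24.5% higher. The share lower is near that of all genes and the share higher is below it. The median was -0.19, against -0.10 over all genes, and it was -0.46 when miR-29b pulldown 4 was left out, -0.05 when miR-29b pulldown 2 was and 0.00 when scrambled pulldown 1 was. The 5 higher were Rpl23a, Rpl23a-ps3, Rpl23a-ps1, Rplp0 and Rpl10, from 1.89 ± 0.37 on the log2 scale for Rpl23a-ps3 to 0.56 ± 0.20 for Rpl10. The libraries of the pulldowns did not overlap for 5 members higher and 16 members lower with miR-29b, as for 22.8% and 21.1% of all genes. Among the 18 lower, Rps19 changed by -1.51 ± 0.24 (edgeR adjusted p = 0.000115) and Rpl18 by -1.19 ± 0.20 (adjusted p = 0.000194), and of the retrocopy symbols Rps3a3 by -1.09 ± 0.36 (adjusted p = 0.0223) and Rps2-ps10 by -0.96 ± 0.31 (adjusted p = 0.0182). Rpl13a was called here with -0.89 ± 0.27 (edgeR adjusted p = 0.0133), a value that shrank to -0.40 (adjusted p = 0.0691) without replicate 1 of the scrambled pulldown, which had 1350 CPM beside 475, 559 and 585 CPM in the others. With replicates 1, 2 and 4 the counts were 7 lower and 2 higher of 98 (11.3% and 19.0% of all genes). The 10 libraries gave 5 lower and 2 higher of 97 (7.32% and 16% of all genes). In both sets the members' shares were below those of all genes.

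The inputs show the level of these mRNAs with each mimic before the pulldown. No member differed between the miR-29b input and the scrambled input by edgeR (0 of 98, with 0.0542% of all genes higher and 0.0% lower), nor by DESeq2. At an unadjusted p under 0.05 there was 1 member, Rplp0 (0.79 ± 0.35), among 604 genes of all 12915 tested. The median log2 difference was 0.13, against 0.02 over all genes, and 87 members lay above 0. The sign of this median turned with 1 library: it was -0.18 when miR-29b input 4 was left out and 0.32 when scrambled input 4 was. With replicates 1 to 3 of every group it was 0.02.

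The fractions have 1 library per group, so their values have no replicate check and no test, and a 2-fold change is used as a description. In the input RNA, members were far lower in the nucleus than in the cytoplasm. They made up 1.18% of the listed counts in the nucleus and 4.23% in the cytoplasm with miR-29b (exact binomial 95% intervals 1.17% to 1.18% and 4.22% to 4.24%), and 1.24% and 4.23% with the scrambled mimic (1.23% to 1.24% and 4.23% to 4.24%). Such intervals cover counting error only. The median log2 ratio of nucleus over cytoplasm was -2.51 with miR-29b and -2.34 with the scrambled mimic, against 0.01 over all genes in each case. More than 2-fold lower in the nucleus were 91 of 93 members with miR-29b (25.9% of all genes) and 92 with the scrambled mimic (24.0% of all genes). The stalk genes had medians of -3.30 with miR-29b and -2.88 with the scrambled mimic. Rplp0 had 74.3 CPM in the nucleus and 1050 CPM in the cytoplasm with miR-29b, and 68.7 and 597 CPM with the scrambled mimic. Other members with the lowest ratios were Rps2-ps10 (log2 ratio -4.12 with miR-29b and -3.74 with the scrambled mimic), Rpl32 (-3.46 and -3.14) and Rps2 (-3.32 and -3.17). At the other end of the list, Rps19bp1 had ratios of -1.28 and -1.26, and Rps18-ps3 and Rpl9-ps6 held at most 2.32 CPM in any input fraction.

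Rpl24 was the member with more in the nucleus. It had 54.7 CPM in the nucleus and 18.8 CPM in the cytoplasm with miR-29b, and 51.5 and 18.8 CPM with the scrambled mimic, log2 ratios of 1.52 and 1.44. In both cytoplasmic inputs its level was the lowest of the subunit genes. As in whole cells, the counts under this gene may not hold all of its mRNA, which was not tested. The ratios of nucleus over cytoplasm correlated between the mimics with a Pearson r of 0.95 over the 93 members, whose levels come from the same 4 input libraries. For comparison, 75 listed genes of the mitochondrial ribosome had medians of -1.30 with miR-29b and -1.21 with the scrambled mimic.

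**Figure D4:**
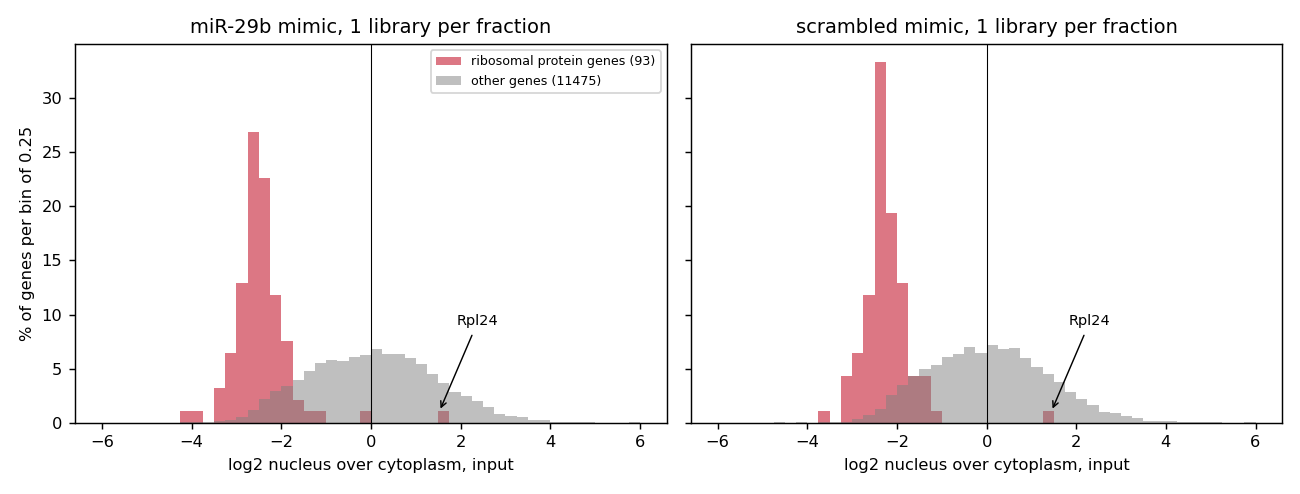
Distribution of log2 nucleus over cytoplasm in input RNA for the 93 ribosomal protein genes (red) and the other genes of the fraction table (grey), as % of genes per bin of 0.25, with miR-29b on the left and the scrambled mimic on the right. The ribosomal protein genes centre on -2.51 and -2.34, and Rpl24 is the member to the right of 0.

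In the cytoplasmic fraction members made up 7.78% of counts in the miR-29b pulldown (exact binomial 95% interval 7.77% to 7.8%) and 7.16% in the scrambled pulldown (7.14% to 7.19%), both above the inputs. The median log2 ratio of pulldown over input was 1.15 with miR-29b and 0.67 with the scrambled mimic, against -0.02 and 0.00 over all genes. More than 2-fold higher were 54 of 93 members with miR-29b (13.7% of all genes) and 26 with the scrambled mimic (10.4% of all genes). Scaled to the listed counts only, these were 32 (6.79% of all genes) and 19 (5.68%). More than 2-fold lower were 0 members with miR-29b (9.41% of all genes) and 1 with the scrambled mimic, Rpl23a-ps3 (10.8% of all genes). With miR-29b 79 of the 93 members were below 0 in whole cells and above 0 in the cytoplasm, and with the scrambled mimic 63 were. The difference between preparations was not tested, since the cytoplasm has 1 library per group.

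Rpl41, which encodes the shortest ribosomal protein, had 12100 CPM in the cytoplasmic miR-29b pulldown and 2270 CPM in the matching input, and 12200 CPM against 2190 CPM with the scrambled mimic. Its log2 ratios of 2.41 and 2.47 were among the 3 highest with each mimic. Rpl34 had 2900 CPM after pulldown with miR-29b, against 411 CPM in the input, but 672 CPM against 423 CPM with the scrambled mimic. Rps19, lower with miR-29b in whole cells, had 1300 CPM in the cytoplasmic miR-29b pulldown against 455 CPM in its input, and 1970 CPM against 417 CPM with the scrambled mimic. Rps27 reached a ratio of 2.22 with miR-29b, and Rpl38 one of 1.90 with the scrambled mimic. Rpl4 was the lowest member with miR-29b, with 595 CPM after pulldown and 1190 CPM in the input with miR-29b, and 729 CPM and 1120 CPM with the scrambled mimic. In all, 9 members were below 0 with miR-29b, the next lowest being Rpl7l1 (-0.49) and Rpl23a-ps1 (-0.39). With the scrambled mimic 21 were below 0, the lowest being Rpl23a-ps3 (-1.86), Rpl15 (-0.72) and Rps3a3 (-0.70). Malat1 and Neat1, noncoding RNAs of the nucleus, had ratios of 4.47 and 4.69 in the cytoplasmic miR-29b pulldown and 5.18 and 4.89 in the scrambled one, with 5730 and 8730 CPM of Malat1 in these pulldowns against 259 and 240 CPM in their inputs. The part of nuclear RNA in the cytoplasmic ratios was not tested.

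In the nuclear fraction the members made up 1.68% of the miR-29b pulldown (exact binomial 95% interval 1.67% to 1.69%) and 1.91% of the scrambled pulldown (1.9% to 1.92%). The median ratios over input were 0.51 with miR-29b and 0.61 with the scrambled mimic, against -0.02 and -0.03 over all genes. More than 2-fold higher were 19 members with miR-29b (2.35% of all genes) and 25 with the scrambled mimic (2.96% of all genes). With miR-29b the highest were Rpl41 (1.58), Rps21 (1.52) and Rps27 (1.45), and the lowest Rps3a3 (-0.63), Rpl4 (-0.62) and Rpl9-ps6 (-0.24). With the scrambled mimic the highest were Rpl38 (2.11), Rpl39 (1.82) and Rps21 (1.81), and the lowest Rpl4 (-0.56), Rpl21 (-0.34) and Rps2-ps10 (-0.19). Across the 93 members the ratios of the 2 mimics correlated with a Pearson r of 0.84 in the nucleus and 0.41 in the cytoplasm. Between whole cells and cytoplasm r was 0.35 with miR-29b and 0.50 with the scrambled mimic.

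**Figure D5:**
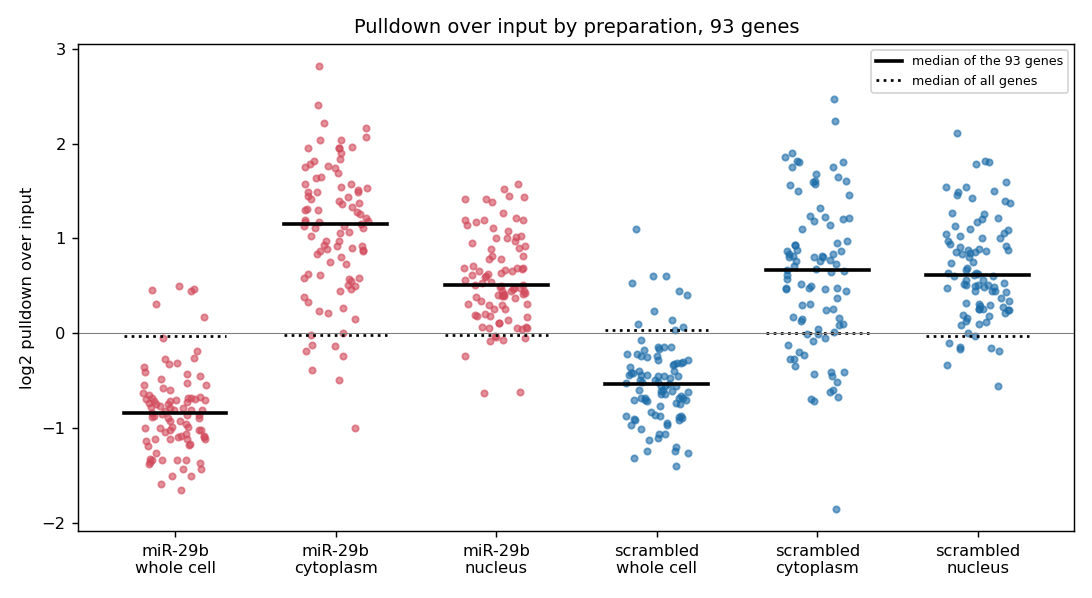
Log2 pulldown over input of the 93 members in whole cells, cytoplasm and nucleus, with miR-29b in red and the scrambled mimic in blue; solid bars are the medians of these genes and dotted bars those of all genes. Whole-cell medians are below 0, while the medians in the cytoplasm (1.15 and 0.67) and the nucleus (0.51 and 0.61) are above 0.

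Genes of ribosomal proteins often carry snoRNA genes in their introns, whose products guide the modification of rRNA. Of the 77 subunit genes 30 (39.0%) had at least 1 annotated snoRNA gene inside their span, 59 snoRNA genes in all, against 229 of 10621 other protein-coding genes tested (2.16%). The hosts had a median pulldown over input change of -1.0 with miR-29b, against -0.75 for the 47 other subunit genes, and of -0.58 with the scrambled mimic, against -0.45. The difference between hosts and others was not tested.

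Related gene lists were described in the same way. Of 21 other TOP mRNAs and translation factors, 14 fell and 1 rose in the miR-29b pulldown (median -0.79), where 23.2% and 28.4% of all genes did. In the scrambled pulldown 11 fell and 1 rose (median -0.52), where 17.4% and 18.5% of all genes did. Eef1a1, the elongation factor that brings aminoacyl-tRNA to the ribosome, averaged 2530 CPM in miR-29b pulldowns against 4860 CPM in its input, and 2450 CPM in scrambled pulldowns against 5470 CPM in its input (edgeR adjusted p = 0.000225 and 0.000101). Eef2, the translocation factor, changed by -0.79 with miR-29b (edgeR adjusted p = 0.0217) and by 0.07 with the scrambled mimic (adjusted p = 0.871), and the difference of -0.85 ± 0.38 was not called (adjusted p = 0.11). In the comparison between the mimics, Eif4b, a helicase cofactor, differed by 1.06 ± 0.24 (edgeR adjusted p = 0.00375) and Eif3f, a subunit of initiation factor eIF3, by -0.95 ± 0.32 (adjusted p = 0.0393).

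Fau and Gnb2l1 encode ribosomal proteins under other names. In the miR-29b pulldown Fau fell by 0.71 (edgeR adjusted p = 0.0304) and Gnb2l1 by 0.76 (adjusted p = 0.00553). In the scrambled pulldown Gnb2l1 fell by 1.23 (edgeR adjusted p = 0.000337), while Fau changed by 0.19 (adjusted p = 0.608). The mitochondrial ribosome, a separate particle encoded by Mrpl and Mrps genes, had 53 of 76 genes lower and 6 higher in the miR-29b pulldown (median -0.75). Of all genes 23.2% were lower and 28.4% higher there. In the scrambled pulldown 49 were lower (median -0.68), where 17.4% of all genes were. Between the mimics 8 of these 76 genes were higher and 3 lower, where 17.0% and 9.21% of all genes were. Their median was -0.10, and both shares are below those of all genes. The 3 with the smallest p were all higher: Mrpl43 differed by 1.80 ± 0.19 (edgeR adjusted p = 8.71e-06), Mrpl32 by 1.92 ± 0.24 (adjusted p = 3.33e-05) and Mrpl37 by 1.29 ± 0.20 (adjusted p = 0.000282).

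Factors that build ribosomes had medians near 0, with 11 of 48 lower and 9 higher in the miR-29b pulldown (median -0.09). Of all genes 23.2% were lower and 28.4% higher there. In the scrambled pulldown 8 of these factors were lower and 13 higher (median 0.09), where 17.4% and 18.5% of all genes were. The shares lower in both pulldowns are near those of all genes. Between the mimics 9 of these factors were lower (9.21% of all genes) and 5 higher (17.0%). Polr1a, the largest subunit of RNA polymerase I, averaged 13.3 CPM in miR-29b pulldowns and 43.9 CPM in scrambled pulldowns (difference -1.49 ± 0.21, edgeR adjusted p = 9.01e-05). Emg1, which methylates 18S rRNA, averaged 309 CPM in miR-29b pulldowns and 57.1 CPM in scrambled pulldowns (2.24 ± 0.31, edgeR adjusted p = 9.22e-05), and Nop2, which methylates 28S rRNA, 97.5 and 28.3 CPM (1.80 ± 0.27, adjusted p = 0.000161). Of 15 genes of the mTOR pathway and its TOP regulators, 3 were higher and 3 lower between the mimics. Of all genes 17.0% were higher and 9.21% lower, so the share higher is near that of all genes. The kinases of Rps6 were higher, Rps6kb2 by 1.65 ± 0.23 and Rps6kb1 by 1.22 ± 0.21 (edgeR adjusted p = 0.000104 and 0.00061), and Tsc2, an inhibitor of mTOR, was lower by 1.18 on the log2 scale, its difference being -1.18 ± 0.20 (adjusted p = 0.000398).

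Genes outside the list were compared with the median profile of the subunit genes over the 16 libraries. The most alike were Shfm1 (Pearson r 0.985), Polr2i (0.982), BC056474 (0.981), the pseudogene Gm15772 (0.975), Myeov2 (0.975), Psmg4 (0.97), Hspe1 (0.966) and N6amt2 (0.965). Among the members, Rpl30 (0.99) and Rpl28 (0.985) followed the median of the subunit genes most closely. Rpl24 (-0.276), Rpl23a-ps1 (-0.176), Rps27a (0.041) and Rpl23a (0.134) followed it least. These are descriptions over libraries that fall into clusters by group and replicate 4, with no test.

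None of the 99 members carried any of the following marks in the authors' deposited table. Of protein-coding genes, 4.3% were marked for a predicted site, 5.54% for a call in all lysed replicates and 7.55% for a call in the intact replicate. A call in at least 1 dataset marked 11.2% and a positive hit 4.59%. The mark for a call in at least 1 lysed replicate was not counted here. The authors' deposited table also gives a PE score, averaged over the lysed replicates, with a median of -0.46 over members and 0.08 over all genes. The members ran from -1.44 to 2.64, the highest being Rpl23a-ps1 with Rpl23a at 2.32, and the lowest score of a gene marked in all lysed replicates in the authors' deposited table was 4.27.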

How the data were processed

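RNA of NIH3T3 cells was sequenced as 16 whole-cell and 8 fraction libraries. The submitters' processing notes name STAR 2.3.0 and the mm10 build; the sources used here give no counting tool and no strand setting. The authors deposited 1 table of raw counts per gene for whole cells and 1 for fractions, each with their own CPM beside the counts, and a PE score of unstated formula. The deposited CPM equalled 1 added to the count, over a total larger than the listed counts sum to. The deposited nuclear table was byte for byte the cytoplasmic one, and each was read once. Repeated lines were dropped, which left 13534 genes of 14052 lines and 11568 of 11579. CPM printed here were computed from the deposited counts with TMM factors. Listed counts made up 48.9% to 87.3% of the authors' totals, and their number limits the precision.

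All 16 whole-cell libraries entered 1 model of group means in edgeR 4.0.16 (R 4.3.3, limma 3.58.1): filterByExpr, TMM, the quasi-likelihood test and Benjamini-Hochberg adjustment over 12915 genes, with calls at 0.05. Fold changes are log2, with standard errors. Fractions, with 1 library each, were compared as log2 ratios with a prior count of 5 and no test, over genes with at least 20 counts. The labels do not say whether replicates were separate cultures, so p-values measure only the spread between these libraries. Replicate numbers are shared across groups: deviations of same-numbered libraries correlated at 0.379 to 0.7 between miR-29b pulldown and input, and at 0.506 to 0.717 between the inputs, while comparisons with the scrambled pulldown included values below 0 (-0.096, -0.069 and -0.054). Between miR-29b pulldown and scrambled input these values were 0.332 to 0.564. The main model used no pairing and no term for lysed or intact. The block setting entered the number for all groups, the scrambled pulldown included. The main model therefore leaves a pairing unused where these values are high. In the miR-29b pulldown over input it had 55 members lower, and the block setting had 78. Alternatives covered RLE (DESeq2's size factors), upper-quartile and authors' totals as scale, filters, the block, DESeq2 1.42.0 and sets of libraries.

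Members, related lists and markers were chosen with earlier results of these data known, so no list is independent evidence. Per whole-cell comparison, the genes named were up to 6 highest and 6 lowest members past the threshold. Per fraction comparison they were the 3 highest and 3 lowest. Also named were 17 members set by role and the 8 genes most like the median profile of the subunit genes. From each related list came up to 3 genes with the smallest p, with Fau, Eef1a1 and Eef2 added. Some genes that this rule names are not reported here, and counts of members include them. Spans, start regions and the mature microRNA came from RefSeq tables of GRCm38.p6, which matched all 99 members by symbol or identifier.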

Additional observations from a re-analysis of the deposited data

Results flagged for a closer look

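Within groups, 22 of 88 sets of 4 libraries had 1 library far from the other 3, where independent sets would give about 1 in 20. These sets share the same libraries, and most are of genes named for their changes in them. They are not independent, so that rate is no reference for their number. In the miR-29b pulldown this was replicate 4, with 8.29% of counts in the 99 genes beside 4.16% in the next library, and Rplp0 at 1200 CPM. In the scrambled pulldown, replicate 1 was the highest for Rps19 (1520 CPM), Rpl18 (564 CPM), Rpsa (3270 CPM) and Rps27l (315 CPM), and the lowest for Rps2-ps6 (0.136 CPM). Replicate 4 of that group was the highest for Rpl23a-ps3 (2.45 CPM).

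The inputs repeated the pattern in replicate 4. With miR-29b it was the highest for Rpsa (8380 CPM), Rplp0 (4120 CPM), Rps19 (1380 CPM), Rpl23a (1330 CPM), Rpl15 (691 CPM), Rpl18 (652 CPM), Rps2-ps10 (289 CPM) and Rps2-ps6 (0.656 CPM). With the scrambled mimic it was the highest for Rpsa (6430 CPM), Rplp0 (2080 CPM), Rpl10 (1790 CPM), Rpl4 (1160 CPM), Rps19 (1110 CPM) and Rpl18 (635 CPM).

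The pulldown over input change differed between the mimics, by the interaction in edgeR (adjusted p under 0.05), for 9 members, of which 8 are given. On the log2 scale, miR-29b minus scrambled, the differences were -3.05 for Rps2-ps6, -1.67 for Rps19, -1.57 for Rpl13a-ps1, -1.26 for Rpl18, -0.86 for Rpl19, -0.69 for Rpl3, 1.58 for Rpl23a-ps3 and 1.63 for Rpl23a.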

How the results depend on the processing

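Of 168 comparisons of a count or median with its value under another setting, leaving out single libraries aside, 129 stayed and 39 moved. A count stayed when it was within 1.5 times the reported one. A whole-cell median stayed when it moved by less than 1 SD between replicates, with the variances of the compared groups added. A fraction median stayed when it moved by less than the 95% counting interval of a typical member. A median could thus change sign and still count as stayed. With the authors' totals it went from -0.33 to 0.05 between the mimics and from -0.19 to 0.18 between the pulldowns. RLE factors and no filter on low counts moved none of these counts and medians. Of 1119 comparisons for single named genes, 78 lost a call, 51 gained one and none reversed a called value. Other scales shifted all genes together: between the mimics the median of all genes was -0.39 with upper-quartile factors and 0.21 with the authors' totals, against -0.10 with TMM, while the members' median relative to it kept within -0.23 to -0.16.

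Between the mimics, members higher and lower numbered 2 and 7. Upper-quartile factors gave 1 and 16, the authors' totals 4 lower, DESeq2 11 lower, replicates 1 to 3 27 lower, the 10 libraries 1 and 0, and replicates 1, 2 and 4, a set added after the data were seen, 0 and 2. Leaving out 1 library gave 1 to 3 higher and 5 to 11 lower. In the miR-29b pulldown over input, the members higher (1) became 0 with upper-quartile factors (22.6%) and 3 with the authors' totals (32.8%). They became 4 with replicates 1 to 3 (34.1%), and 0 with the 10 libraries (20.5%) and with replicates 1, 2 and 4 (21.1%). Members lower (55) became 18 with the 10 libraries (14.4%). Leaving out 1 library gave 0 to 4 higher (25.3% to 30.2%) and 45 to 80 lower (19.3% to 25.1%). In the scrambled pulldown over input, members higher (1) became 2 with DESeq2 (20.6%) and 6 with replicates 1 to 3 (27.7%). Members lower (33) became 3 with the 10 libraries (3.39%) and 10 with replicates 1, 2 and 4 (7.7%). Leaving out 1 library gave 1 to 2 higher (13.7% to 21.2%) and 25 to 44 lower (13.5% to 21.1%). Between the pulldowns (5 higher, 18 lower) upper-quartile factors gave 2 and 31 (19.1% and 33.6% of all genes) and the authors' totals 15 and 6 (29.4% and 8.47%). A filter at 2 CPM in 4 libraries gave 3 higher (27.8%), and replicates 1 to 3 gave 47 lower (29.5%). The 10 libraries gave 2 and 5 (16% and 7.32%), and replicates 1, 2 and 4 gave 2 and 7 (19.0% and 11.3%). Leaving out 1 library gave 2 to 9 higher (21.9% to 26.3%) and 12 to 21 lower (17.4% to 22.3%). The smaller sets hold fewer libraries, and the 10 libraries also hold replicate 4 in only some groups. The cause of the other moves was not tested.

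With the replicate number as a block, the members lower and higher were 16 and 2 between the mimics (15.0% and 20.1% of all genes), 78 and 2 in the miR-29b pulldown over input (28.3% and 31.1%), 45 and 5 in the scrambled pulldown over input (21.0% and 23.8%), and 31 and 9 between the pulldowns (28.3% and 26.4%). The shares lower between the mimics and between the pulldowns are near those of all genes. In the inputs 0 were called with or without the block.

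In the fractions, scaling to listed counts only moved the medians to -1.80 with miR-29b and -1.77 with the scrambled mimic for nucleus over cytoplasm, 0.73 and 0.38 for the cytoplasmic pulldown over input, and 0.36 for the nuclear miR-29b pulldown. Fractions have 1 library per group, so their spread is unknown.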
